A study of Mus musculus with 4 samples.

Results

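Blood vessels bring gonadotropins and nutrients into the testis and carry testosterone out, and their lining was followed here through 10 genes: Eng, Cd34, Pecam1, Tek, Tie1, Kdr, Flt1, Cdh5, Vwf and Vegfa. The first 9 mark endothelial cells, the cells that line vessels, and Vegfa encodes a growth factor that acts on them. Every probe set (a group of oligonucleotides that reads 1 transcript) whose only gene symbol in the array annotation was 1 of the 10 was taken. This gave 14 probe sets for all 10 genes, out of 12422 probe sets and 8251 named genes on the array. The rule itself uses no measured value.

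RNA came from testes of hypogonadal (hpg) mice, which lack gonadotropin-releasing hormone and make little testosterone, and each of the 4 samples was read on 1 one-colour array. All 4 are labelled as having received testosterone propionate, an injectable testosterone ester, followed by its withdrawal. The T+T group, named by its titles, has 3 arrays. T+T replicate 1 is described as then treated again with the ester for 4 hours, and its label gives no length for the first treatment. T+T replicates 2 and 3 are described as treated for 2 weeks and withdrawn, with no later dose, so that their place in T+T rests on the title alone. The T+O group is 1 array, described as treated for 2 weeks and withdrawn. The labels give no strain background or age, and do not say whether animals were pooled or arrays came from separate animals. The p-values therefore measure only the spread between these samples, which with 1 T+O array comes from T+T alone.

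Vascular endothelial growth factor A (VEGF-A) binds the receptor tyrosine kinases KDR and FLT1 on endothelial cells; KDR carries most of the growth signal, and FLT1 binds the ligand tightly and limits it. TEK (TIE2) and its partner TIE1 form the angiopoietin receptor system that keeps vessels stable, endoglin (Eng) is a coreceptor of the TGF-beta family, and PECAM1, VE-cadherin (Cdh5) and CD34 sit at the endothelial surface. In the testis vessels run between the tubules beside the Leydig cells, which secrete testosterone.

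The arrays were brought to a common 2% trimmed mean, and a difference is given on the log2(scaled signal + 10) scale, T+T minus T+O, which understates the change of dim probe sets. Deposited array medians lay between 25.4 and 48.3, and array pairs correlated at a Pearson's r of 0.943 to 0.968 over the probe sets kept. The test covered the 7453 probe sets with a 4-array mean scaled signal over 22.7, the level that 40% of probe sets fall under. The testis label was borne out by germ cell markers such as the transition protein Tnp2, at 8456 to 10740 on T+T arrays and 7942 on the T+O array, and by the Sertoli cell secreted protein Clu, at 1566 to 1874 on T+T arrays and 1589 on the T+O array. Some other markers of these cells were bright too, such as the germ cell gene Ldhc (4713 to 6071 in T+T, 5073 in T+O). The Sertoli gene Fshr had 148.8 to 175.7 in T+T and 135.5 in T+O. Others were dim. The germ cell gene Prm2 had 29.3 to 58.1 in T+T and 25.5 in T+O. Under the filter lay the germ cell gene Sycp3 (0.53 to 5.06 in T+T, 3.20 in T+O) and the Sertoli gene Amh (15.6 to 19.2 in T+T, 10.4 in T+O).

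Most endothelial probe sets were dim: 5 of the 14 probe sets, those of 4 genes (Eng, Cd34 with both of its probe sets, Pecam1 and 1 of 2 for Vwf), passed the filter. None of these 5 passed the test (limma, adjusted p between 0.70 and 0.966), and none had an unadjusted p under 0.05. Across all probe sets kept, 2 (0.0268%) passed and 581 had an unadjusted p under 0.05. In 4 of the 5 kept probe sets all 3 T+T arrays lay above the T+O array, as did 29.5% of all probe sets kept. In 0 of the 5 did all 3 lie below, as did 23.7% of all. Without scaling the arrays, 1 of the 5 lay above on all 3, beside 6.94% of all. The median log2 difference of the 5 was 0.35, against 0.03 over all probe sets kept; without scaling it was 0.18, against -0.16 over all. Whether T+T and T+O testes differed in the number of endothelial cells or in RNA per cell cannot be told apart in whole-tissue RNA.

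**Figure D1:**
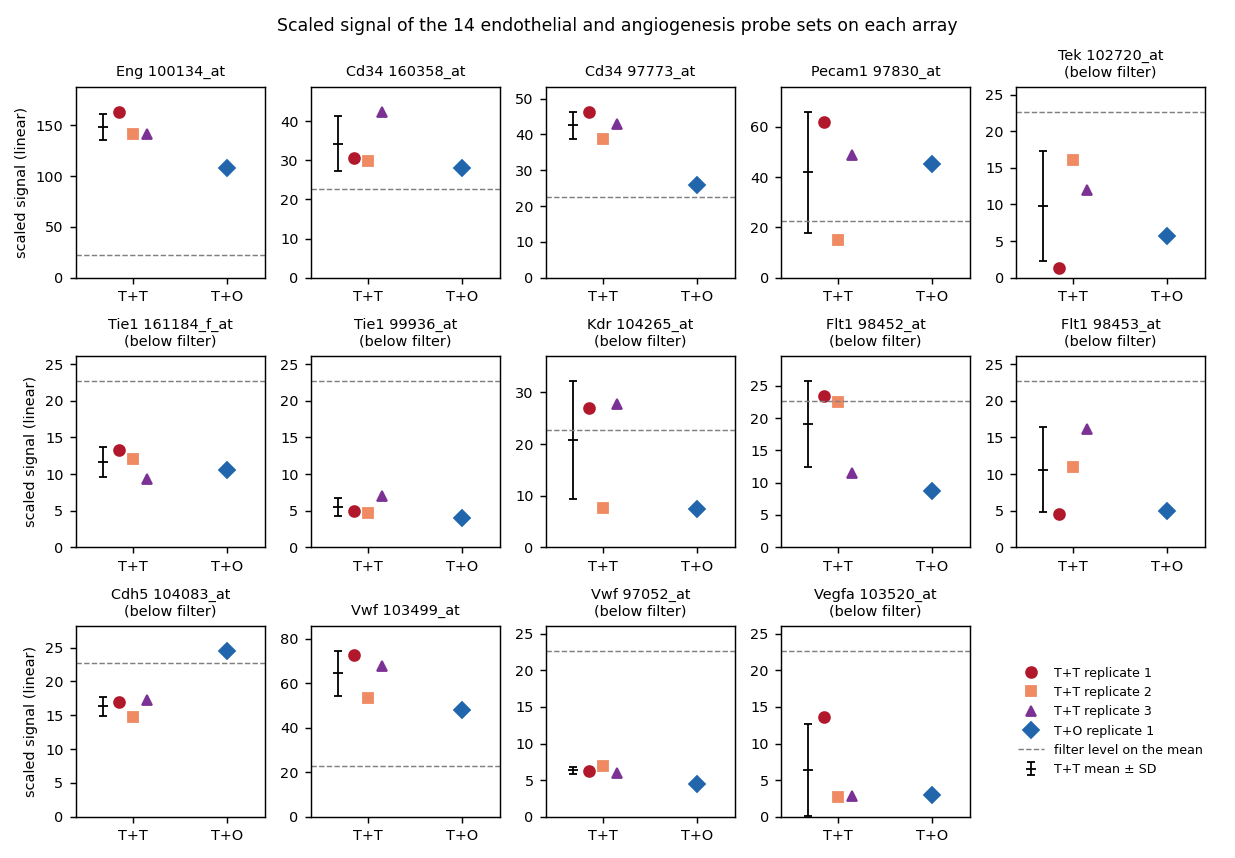
Scaled signal (linear, from 0) of each of the 14 probe sets on the T+T arrays (left; bar, mean ± SD, n = 3) and the T+O array (right), with the filter level on the 4-array mean as a dashed line at 22.7. Eng and the Cd34 probe set 97773_at have all 3 T+T arrays well above the T+O point, Pecam1 is split by T+T replicate 2, and 9 probe sets have their mean under the line.

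Eng, the coreceptor named above, had the narrowest interval of the 5 kept probe sets. Its probe set 100134_at had a scaled signal of 163, 141 and 141 on T+T replicates 1, 2 and 3, against 108 on the T+O array. The lowest T+T array was 0.35 above T+O on the log2 scale, so the groups did not overlap. The mean was 148 ± 12.8 (SD, n = 3) in T+T, and the log2 difference was 0.42 (SE 0.21, 95% interval -0.06 to 0.90, limma, adjusted p = 0.70). The interval holds 0 as well as a difference larger than 1.5-fold (0.585 on the log2 scale).

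Cd34, a sialomucin of endothelial and blood-forming cells, was read by a pair of probe sets. On 97773_at the scaled signal was 46.1, 38.6 and 42.9 on T+T replicates 1, 2 and 3, against 25.8 on the T+O array. The T+T arrays lay close together and apart from T+O, and the groups differed by 0.55 on the log2 scale (SE 0.30, 95% interval -0.14 to 1.24, limma, adjusted p = 0.726). On 160358_at it was 30.5, 29.9 and 42.4 in T+T, against 28.1 in T+O. Here T+T replicates 1 and 2 were within 0.09 of T+O on the log2 scale and replicate 3 stood higher. The log2 difference was 0.20 (SE 0.34, limma, adjusted p = 0.944), so the 2 readings of Cd34 pointed the same way with different sizes. With T+T replicate 1 set against the other 3 arrays, the grouping that the descriptions alone would give, 160358_at differed by -0.09.

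Vwf encodes the clotting protein von Willebrand factor, which endothelial cells and megakaryocytes store. Its probe set 103499_at had 72.7, 53.3 and 67.6 on T+T replicates 1, 2 and 3, against 48.2 on the T+O array. All 3 were higher, replicate 2 only by 0.12 on the log2 scale. The log2 difference was 0.35 (SE 0.27, 95% interval -0.27 to 0.97, limma, adjusted p = 0.818). The other, 97052_at, had 6.21, 6.90 and 5.92 in T+T against 4.48 in T+O. It lay under the filter on every array, so the second Vwf reading adds no test. The platelet factor Pf4, made by megakaryocytes, had 24.9 to 33.1 in T+T and 24.9 in T+O.

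Pecam1, the adhesion molecule of endothelial junctions that also coats platelets and leukocytes, gave no common direction. Probe set 97830_at had 61.8, 14.99 and 48.9 on T+T replicates 1, 2 and 3, against 45.4 on the T+O array. Replicate 2 stood far below the other 3 arrays and set the sign of the mean. The log2 difference was -0.23 (SE 0.55, 95% interval -1.51 to 1.06, limma, adjusted p = 0.966); without replicate 2 it was 0.23. This interval is the widest of the 5.

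**Figure D2:**
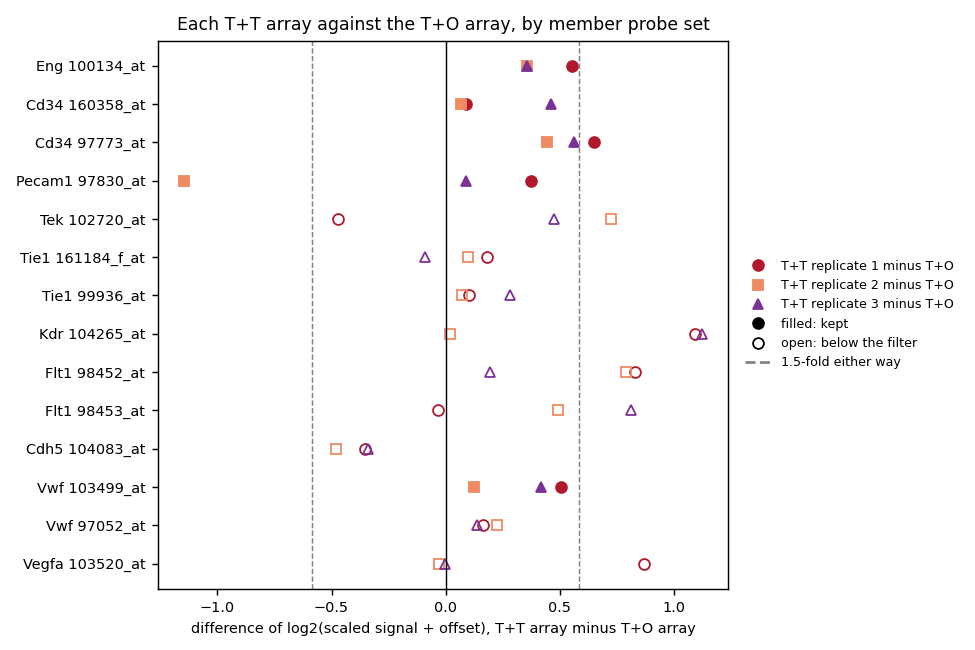
Difference of each T+T array from the T+O array on the log2(scaled signal + 10) scale, 1 line per probe set; filled symbols are the 5 kept, open symbols the 9 under the filter, and dashed lines mark 1.5-fold (0.585). No probe set has all 3 T+T arrays past either line. Pecam1, Tek, Tie1 161184_f_at, Flt1 98453_at and Vegfa have arrays on both sides of 0.

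None of the 14 probe sets had all 3 T+T arrays at least 1.5-fold to 1 side of the T+O array. Over all probe sets kept, 1.82% were at least that far above and 2.21% at least that far below. With no filter, which takes in the dim members too, 523 of all 12422 probe sets were that far to 1 side.

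The VEGF receptors lay below the filter. Kdr, on 104265_at, had 26.9, 7.56 and 27.7 on T+T replicates 1, 2 and 3, against 7.32 on the T+O array. T+T replicates 1 and 3 were about 1.1 higher on the log2 scale, while replicate 2 was level with T+O. Flt1 had 2 probe sets. Its 98452_at had 23.4, 22.4 and 11.5 in T+T and 8.78 in T+O, and 98453_at had 4.60, 11.01 and 16.2 in T+T and 4.94 in T+O. On 98452_at all 3 T+T arrays were higher, with replicates 1 and 2 highest; on 98453_at replicate 1 was level with T+O and replicate 3 was highest. The Flt1 readings thus ranked the T+T arrays in opposite orders. The log2 differences were 0.74 for Kdr, 0.60 for 98452_at and 0.42 for 98453_at, with standard errors of 0.52, 0.39 and 0.37 where all 12422 probe sets entered the fit (limma, adjusted p = 0.849, 0.837 and 0.882).

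Vegfa, their ligand, was near the bottom of the range. Its probe set 103520_at had 13.6 on T+T replicate 1, 2.65 and 2.88 on replicates 2 and 3, and 2.93 on the T+O array. Replicate 1, the only array labelled with 4 hours of renewed ester, was the sole higher one, and the other 3 lay between 2.65 and 2.93. Its 4-array mean exceeded those of about 13.3% of all probe sets, and all readings were below the filter level. Without detection calls these signals could not be told from background, and no level of Vegfa was established.

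The angiopoietin receptors and VE-cadherin were also dim. Tek had 1.38, 16.1 and 11.9 on T+T replicates 1, 2 and 3, against 5.76 on the T+O array, so T+T arrays lay on both sides. Tie1 had 13.3, 12.1 and 9.35 in T+T against 10.6 in T+O on 161184_f_at, a probe set that by its suffix can also bind related genes, and 4.95, 4.64 and 6.93 in T+T against 3.93 in T+O on 99936_at. The groups overlapped on 161184_f_at (log2 difference 0.06). On 99936_at all 3 T+T arrays lay above T+O, the nearest by 0.07, and the log2 difference was 0.15. Cdh5, the junctional cadherin of endothelium, had 17.0, 14.7 and 17.2 in T+T against 24.5 in T+O. It was the member whose 3 T+T arrays all lay below T+O, differing by -0.39 on the log2 scale (SE 0.32 in the fit with no filter, limma, adjusted p = 0.875). Over the 9 probe sets under the filter, 4 had all T+T arrays above T+O, 1 had all below and 4 overlapped; of all 4969 probe sets under the filter 29.9% lay above and 22.4% below.

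Promoter sequence was available from RefSeq for 7 of the 10 genes and is shown for 4: Eng and Cd34, which carry the widest separations among kept probe sets, and the VEGF receptors Kdr and Flt1. Each is the 250 bases before the annotated start, 5′ to 3′ on the gene's strand (GRCm38.p6). They lie at chr2:32646345-32646594 (plus strand), chr1:194938571-194938820 (plus), chr5:75978456-75978705 (minus) and chr5:147726012-147726261 (minus). Capitals mark AGGAAG on either strand (read as CTTCCT on the other). It is a longer form of GGAA, the core bound by ETS factors, a family that controls many endothelial genes.
Eng: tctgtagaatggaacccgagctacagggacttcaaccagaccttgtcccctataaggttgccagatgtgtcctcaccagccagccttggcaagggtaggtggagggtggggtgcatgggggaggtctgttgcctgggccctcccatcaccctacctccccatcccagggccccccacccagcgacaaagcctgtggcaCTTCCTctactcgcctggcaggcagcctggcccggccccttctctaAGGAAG
Cd34: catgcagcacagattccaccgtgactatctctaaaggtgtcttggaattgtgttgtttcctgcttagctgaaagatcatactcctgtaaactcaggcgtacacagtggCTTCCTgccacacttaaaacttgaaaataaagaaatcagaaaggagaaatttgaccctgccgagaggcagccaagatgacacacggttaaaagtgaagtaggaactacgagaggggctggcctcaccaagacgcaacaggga
Kdr: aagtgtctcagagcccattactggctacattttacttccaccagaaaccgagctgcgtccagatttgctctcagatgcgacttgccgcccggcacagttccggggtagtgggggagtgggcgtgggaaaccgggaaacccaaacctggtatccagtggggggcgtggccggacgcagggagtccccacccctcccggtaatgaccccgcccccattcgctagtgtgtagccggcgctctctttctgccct
Flt1: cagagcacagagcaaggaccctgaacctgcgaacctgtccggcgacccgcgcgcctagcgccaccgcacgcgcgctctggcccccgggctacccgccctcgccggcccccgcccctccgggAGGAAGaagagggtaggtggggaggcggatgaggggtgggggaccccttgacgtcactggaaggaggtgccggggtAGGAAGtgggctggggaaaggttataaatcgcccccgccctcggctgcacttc
AGGAAG was found 2 times each in the Eng and Flt1 windows and 1 time each in those of Cd34 and Tie1. The windows of Kdr and Tek and both Vegfa windows lacked it, so 4 of the 8 member windows held it. Of all 32851 promoter windows of this length, 29.5% held it. The shorter GGAA was not counted, and the Kdr window holds it. A full androgen receptor site, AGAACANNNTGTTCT, was in none of the member windows and in 3 of all windows, and its half-site AGAACA was in the Tek window and in 16.1% of all. The hypoxia core ACGTG was in 1 of the 2 Vegfa windows and in 16.6% of all. That window, chr17:46025164-46025413 (minus strand), lies inside the gene, downstream of the other annotated start. The window of the upstream start, chr17:46032378-46032627, held no ACGTG. These are matches of letters, not binding sites. GGGCGG, the Sp1 motif, was in 4 of the 8 member windows and 32.7% of all, and the GATA motif AGATAA in 1 and 9.99%. None of these matches overlapped a marked AGGAAG in the 4 windows shown.

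Beyond the members, 117 genes of 7 pathway lists were followed; 98 were measured and 46 were kept, each through its brightest probe set. None of the 46 passed the test (limma). An unadjusted p under 0.05 was found for 3 of the 46, beside 581 of all 7453 probe sets kept. All 3 T+T arrays lay above T+O for 19 (41.3%) and below for 9 (19.6%), beside 29.5% and 23.7% of all probe sets kept, and the median log2 difference was 0.09. Without scaling 5 of the 46 lay above and 5 below, beside 6.94% and 20.3% of all.

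The endothelial transcription factor list held the largest of these differences. Ets1, a member of the ETS family, had 41.5, 36.9 and 25.9 on T+T replicates 1, 2 and 3, against 8.60 on the T+O array. All 3 were more than 1.5-fold higher, with T+O under the filter level, and the log2 difference was 1.25 (SE 0.38, limma, adjusted p = 0.445). It lay between 1.12 and 1.25 under the 4 scalings. Among the other 7 kept factors, all 3 T+T arrays also lay above T+O for Lmo2 (53.5 ± 2.97 in T+T, 39.1 in T+O), Sox18 (56.4 ± 8.93 in T+T, 41.3 in T+O) and Sox17 (201 ± 7.47 in T+T, 169.8 in T+O). LMO2 is a bridging cofactor of blood and endothelial transcription, and SOX17 and SOX18 act in arterial and lymphatic endothelium. A dimmer kept probe set of Lmo2 gave 1.04 and one of Sox18 gave 0.73 on the log2 scale, in the same direction, and one of Sox17 gave 0.03. Of the 8 kept factors 4 had a difference above 0, 3 lay below and Nr2f2 was at 0.00. Klf4, a factor of quiescent endothelium that other cells also use, had 246, 216 and 250 in T+T against 254 in T+O, below on all 3 arrays (log2 difference -0.10). Gata2, a factor of blood-forming and endothelial cells, differed by -0.09 with the groups overlapping. All 3 T+T arrays lay above T+O for 4 of the 8 and below for 1, beside 29.5% and 23.7% of all probe sets kept; without scaling these were 2 and 1 of the 8.

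The Notch and ephrin list, whose genes set arterial identity and restrain sprouting, had 4 kept genes, and 0 of 4 passed the test. The receptor Notch4, found mainly in endothelium, had 32.8, 34.4 and 31.6 in T+T against 25.3 in T+O. Its relative Notch1 had 27.3, 17.9 and 37.1 in T+T against 12.1 in T+O, with the T+O array under the filter level. The Notch target Hey1 had 72.0 ± 3.55 in T+T and 55.6 in T+O, and Hes1 had 114 ± 19.4 in T+T and 88.0 in T+O. All 4 had every T+T array above T+O, a place that 29.5% of all probe sets kept had, and the list's median log2 difference was 0.32. Without scaling 1 of the 4 did, beside 6.94% of all, and the median was 0.14. No Notch or ephrin gene reached 1.5-fold on all 3 arrays.

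In the hypoxia axis, which controls Vegfa transcription, 11 genes were kept and none passed. Of these 8 had a difference above 0 and 3 below, with a median of 0.19 on the log2 scale, and -0.01 without scaling. Hif1a, the oxygen-regulated subunit of the factor that induces Vegfa, had 120.5, 182 and 197 on T+T replicates 1, 2 and 3, against 304 on the T+O array. All 3 were at least 1.5-fold lower, and the groups differed by -0.86 on the log2 scale (SE 0.28, limma, adjusted p = 0.477). Its second probe set differed by -1.04 (limma, adjusted p = 0.566); both carry the same suffix as the Tie1 probe set that can bind related genes. Vhl, which targets HIF1A for destruction, had 59.1, 72.2 and 53.1 in T+T against 35.6 in T+O, which was 0.64 higher on the log2 scale (SE 0.27, limma, adjusted p = 0.64). Arnt, the constant partner of HIF1A, had 56.5 ± 14.7 in T+T and 39.3 in T+O. Egln1, the oxygen-sensing hydroxylase that marks HIF1A for VHL, had 18.4, 33.4 and 39.4 in T+T against 41.6 in T+O. All 3 were lower, with replicate 3 close to T+O, and the log2 difference of -0.39 (limma, adjusted p = 0.884) was -0.16 without T+T replicate 1.

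Other ligands, receptors and inhibitors lay on both sides of 0, and none passed the test. Of 6 kept ligands 3 had a difference above 0 and 3 below: Pgf, a FLT1 ligand, had 45.3, 39.8 and 42.2 in T+T against 31.2 in T+O, Vegfb, another FLT1 ligand, had 67.1 ± 9.93 in T+T and 70.8 in T+O, and the heparin-binding growth factor Mdk had 70.4, 37.0 and 120.5 in T+T against 122 in T+O. Mdk depended on 1 array: its log2 difference was -0.74, and -0.37 without T+T replicate 2. Of 5 kept receptors 1 was above 0 and 4 below, and Nrp1, a coreceptor of VEGF-A, had 15.1, 26.5 and 39.9 in T+T against 39.8 in T+O. Its difference was -0.48, and -0.22 without T+T replicate 1. Of 4 kept inhibitors 1 was above 0 and 3 below. The metalloproteinase inhibitor Timp3, which also blocks VEGF-A binding to KDR, had 89.0, 88.2 and 72.8 in T+T against 123 in T+O (log2 difference -0.51, limma, adjusted p = 0.67). Serpinf1, the antiangiogenic pigment epithelium-derived factor, had 31.5 ± 2.45 in T+T and 43.1 in T+O. Among 8 other kept endothelial genes 5 were above 0 and 3 below, led by the endothelin-converting enzyme Ece1 at 97.2, 121 and 99.6 in T+T against 73.4 in T+O (limma, adjusted p = 0.695).

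**Figure D3:**
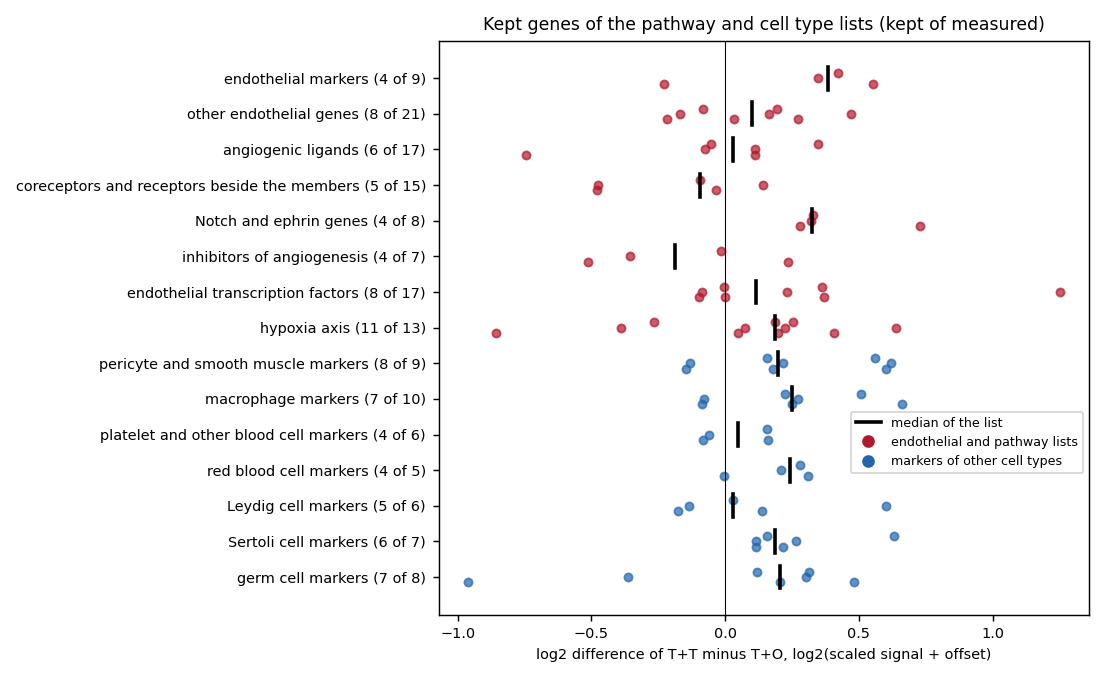
Log2 difference, T+T minus T+O, of every kept gene of the endothelial list, the 7 pathway lists (red) and 7 lists of markers of other cell types (blue), with each list's median as a bar and its kept and measured genes in brackets. Ets1 is the point at 1.25, and the medians lie between -0.19 for inhibitors and 0.38 for endothelial markers.

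Summed levels of cell type markers were set beside the endothelial values. Summed over the 9 endothelial genes, the scaled signal was 321 to 426 on T+T arrays and 284 on the T+O array. For 9 measured pericyte and smooth muscle genes, which wrap vessels and tubules, the sum was 936 to 961 in T+T and 800 in T+O, with a median log2 difference of 0.20 over 8 kept; Tagln had 117, 112 and 98.5 in T+T against 70.7 in T+O (log2 difference 0.56, limma, adjusted p = 0.595). For 10 macrophage genes the sum was 497 to 541 in T+T and 424 in T+O, with a median of 0.25 over 7 kept. For 5 red blood cell genes the sum was 599 to 661 in T+T and 575 in T+O, with a median of 0.24 over 4 kept, and Hba-a1 had 298, 331 and 352 in T+T against 327 in T+O. For 6 platelet and other blood cell genes the sum was 120 to 148 in T+T and 129 in T+O, with a median of 0.05. Leydig cell markers (6 measured) summed to 303 to 393 in T+T and 349 in T+O, with a median of 0.03, Sertoli cell markers (7 measured) to 2141 to 2501 in T+T and 2106 in T+O, with a median of 0.19, and germ cell markers (8 measured) to 24490 to 31070 in T+T and 24040 in T+O, with a median of 0.20. The endothelial, pericyte, macrophage, red blood cell, Sertoli and germ cell sums were thus each lowest on the T+O array with this scaling, and no listed gene was at 0 on any array. A sum follows its brightest genes. Eng gave 108 of the endothelial 284 on the T+O array and had 141 to 163 on T+T arrays. Clu gave 1589 of the Sertoli 2106 on the T+O array and overlapped between the groups. Tnp2, Prm1 and Ldhc, of the germ cell list, differed by -0.02, -0.04 and -0.12 after quantile scaling. The germ cell sum is carried by the 3 and by Tnp1. Of the 7 kept germ cell genes, 4 lay above T+O on all T+T arrays and 2 lay below. The shares over all probe sets kept were 29.5% above and 23.7% below. Dazl, an RNA-binding protein of germ cells, had 63.5, 79.2 and 103 in T+T against 166 in T+O, at least 1.5-fold lower on all 3 (log2 difference -0.96, limma, adjusted p = 0.41), while its other kept probe set differed by 0.01. Acrv1, an acrosomal protein of spermatids, differed by -0.36. Without scaling the Sertoli and germ cell medians were both -0.01. The ratio of 3′ to 5′ signal of the control gene Gapdh, a sign of RNA quality, was 0.886, 0.837 and 0.809 on T+T replicates 1, 2 and 3 and 1.20 on the T+O array. For Actb it was 1.66, 1.4 and 1.17 on the T+T arrays and 1.53 on T+O, which lay inside the T+T range. For pyruvate carboxylase it was 1.93, 2.00 and 1.76 on the T+T arrays and 3.76 on T+O. The part of these cell types and of RNA quality in the endothelial values was not tested.

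T+T replicate 1 and T+O replicate 1 are the arrays whose titles and descriptions match. Between this pair, which has no replicate check, 1 of the 5 kept probe sets was at least 1.5-fold higher in T+T, Cd34 on 97773_at at 0.65, beside 6.83% of all probe sets kept. None was as far lower, beside 11% of all. Eng differed by 0.55, Vwf on 103499_at by 0.51 and Pecam1 by 0.37. The median of the 5 was 0.51, against 0.04 over all probe sets kept. Among probe sets under the filter, Kdr differed by 1.09, Vegfa by 0.87, Flt1 on 98452_at by 0.83 and Tek by -0.47. The medians of the 5 were 0.12 on T+T replicate 2 and 0.42 on T+T replicate 3; all 3 comparisons share the T+O array.

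**Figure D4:**
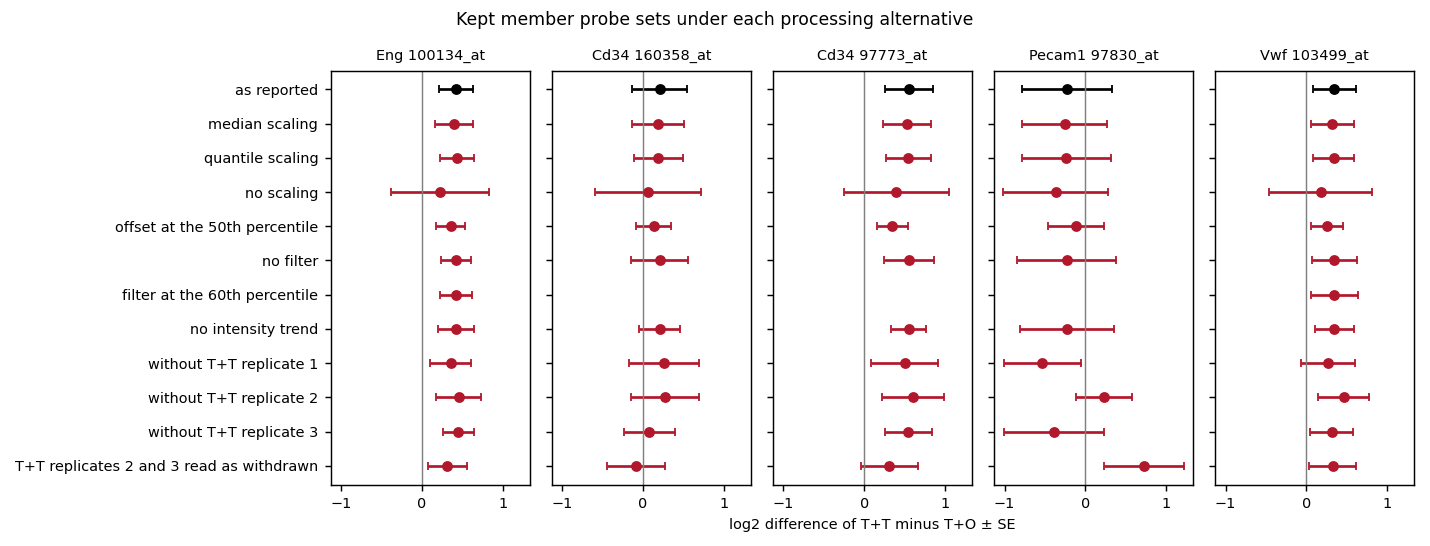
Log2 difference ± SE, T+T minus T+O, of the 5 kept probe sets as reported (black) and under each processing alternative (red); an empty place is a setting whose filter leaves the probe set out, and the last line sets T+T replicate 1 against the other 3 arrays. Eng, Vwf and Cd34 97773_at stay right of 0 in every setting drawn, and Pecam1 lies on both sides.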

How the data were processed

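Signal intensities of 12488 probe sets on 4 arrays were used as the authors deposited them, on a linear scale; their software was not given in the sources used here. The probe set names are those of a one-colour Affymetrix array. Array levels differed, so 66 control probe sets were removed and each array was multiplied by a factor between 0.779 and 1.33 to a common 2% trimmed mean. An offset of 10 (the 25th percentile of scaled values, rounded) was added before log2. Gene names came from the platform annotation (10833 probe sets with 1 symbol, 396 with several, 1193 with none), of which 10817 were matched by gene ID to RefSeq (GRCm38.p6). T+T was compared with T+O by limma 3.58.1 in R 4.3.3 (lmFit, eBayes with an intensity trend, two-sided, Benjamini-Hochberg over 7453 probe sets, threshold 0.05), with 2 residual and 5.74 prior degrees of freedom; with 1 T+O array, the spread comes from T+T alone. The procedure was tested on simulated data. The simulated T+O array was given the same spread as the T+T arrays, so whether the real one varies alike was not tested. Groups follow the sample titles; the unnumbered T+T title was called replicate 3. Of each list, up to 3 genes with the highest and 3 with the lowest difference were named, beside all members. Sox17, Nr2f2, Prm1, Sycp3 and Amh lie outside that rule and were named after their values were seen. The members and lists were chosen with earlier results of these data known. The number of arrays limits the precision.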

Additional observations from a re-analysis of the deposited data

How the results depend on the processing

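No paired analysis was possible because T+O has a single array, whose number pairs it with nothing. No kept member probe set passed the adjusted threshold (limma), and none was at least 1.5-fold to 1 side of T+O on all T+T arrays, under any of the 11 alternatives. Under the filter, Kdr lay at least 1.09 above T+O on the log2 scale without T+T replicate 2, Flt1 98452_at at least 0.79 above it without T+T replicate 3, and Vegfa on T+T replicate 1 at least 0.87 above each of the other 3 arrays. Of 52 recomputed differences of kept member probe sets, 49 kept their sign (adjusted p between 0.384 and 1 in limma). The exceptions were Pecam1, -0.53 to 0.231 leaving out 1 T+T array (above 0 without replicate 2) and 0.727 when T+T replicate 1 is set against the other 3 arrays, and Cd34 160358_at, -0.087 in that grouping. Without scaling the median of all probe sets moved to -0.16, and 1 of the 5 kept members lay above T+O on all T+T arrays (6.94% of all probe sets). Over all probe sets, the 2 past the limma threshold became 6 with median scaling or the offset at the 50th percentile, 5 without scaling, 0 with quantile scaling, no filter, no intensity trend or that grouping, and 1 to 63 leaving out 1 T+T array. The count of probe sets at least 1.5-fold to 1 side, 301, became 190 without scaling, 155 with the higher offset, 523 with no filter and 167 with the 60th percentile filter, and 416 to 653 leaving out 1 T+T array. Between T+T replicate 1 and T+O, the 1 member probe set of 5 became 2 of 5 with quantile scaling and 4 of 14 with no filter. It became 0 without scaling, with the higher offset or with the 60th percentile filter. The share over all probe sets was not counted under these settings, so these counts are no result about the members. Dim signals limit Kdr, Flt1, Tek, Tie1, Cdh5 and Vegfa.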
